A study of Homo sapiens with 6 samples.

Results

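The genes examined here are 10 known targets of the microRNA miR-33a that act in cholesterol export, fatty acid oxidation and the control of both, out of 60671 annotated genes in the matrix. They were chosen by name from what is known of miR-33, without a rule on their values, but with earlier results of these data known. The genes are ABCA1, ABCG1, NPC1, CPT1A, CROT, HADHB, IRS2, PRKAA1, SIRT6 and NRIP1. Each symbol matched 1 row. RNA sequencing had been performed on xenografts of wild-type MDA-MB-231, a line of human breast cancer cells of the triple-negative kind, without estrogen receptor, progesterone receptor or HER2 amplification. Per the methods, 200000 cells in Matrigel were injected orthotopically into the mammary fat pad of female NSG mice (NOD/SCID/IL2Rγ-null, which lack T, B and natural killer cells) aged 6 to 8 weeks, and no other treatment or genetic change is given for either group. Tissue from the core of the tumor (TC) makes up one group of 3 samples, and tissue from its margin (TM) the other group of 3. A legend of the study counts the samples of each group as separate mice. Neither the legend nor the methods say whether TC and TM samples with the same number came from the same mouse.

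MicroRNAs are short RNAs that guide Argonaute proteins to messenger RNAs by pairing of their seed, bases 2 to 8, with sites that lie mostly in the 3′ untranslated region (3′ UTR), which lowers the stability or the translation of the message. The human genome holds a pair of miR-33 genes in introns of the SREBP genes: miR-33a in SREBF2, which drives cholesterol synthesis, and miR-33b in SREBF1, which drives fatty acid synthesis. miR-33 is best known in liver and macrophages for repressing the cholesterol exporter ABCA1. It also targets enzymes of fatty acid transport and oxidation in mitochondria and peroxisomes. Both mature sequences are shown because they share the letters that the targets match, here in capitals (RefSeq, GRCh38.p14). The mature sequences lie at chr22:41900949-41900969 (plus strand) and chr17:17813897-17813916 (minus strand).
hsa-miR-33a-5p: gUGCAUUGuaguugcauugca
hsa-miR-33b-5p: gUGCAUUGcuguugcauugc
Over the shared 20 bases the arms differed at 2, both outside the seed, and 2 mature miRNAs of the RefSeq table, these ones, carried this seed.

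The 3′ UTRs of the target genes were searched on the transcribed strand for the letters that pair with this seed. A 7mer-m8 match is CAATGCA, and an 8mer match is CAATGCAA, the same letters with an A after them. Windows of 30 bases around the matches are given 5′ to 3′ on the strand of the gene, with the matched letters in capitals (GRCh38, GENCODE v29, longest annotated 3′ UTR). The first line holds 3 overlapping or adjacent 8mers.
ABCA1, chr9:104784157-104784186, minus strand: actattCAATGCAATGCAAttCAATGCAAt
ABCA1, chr9:104782832-104782861, minus strand: tttttttttttttaattgcaaCAATGCAAa
CPT1A, chr11:68755123-68755152, minus strand: gttgctcatcagtgcagttatCAATGCAAt
CROT, chr7:87398839-87398868, plus strand: taagctcctctgatgcagcagCAATGCAAa
CROT, chr7:87398915-87398944, plus strand: atccaaatctacaaactttaaCAATGCAAg
HADHB, chr2:26289992-26290021, plus strand: ctcacactaggcaatgccatttCAATGCAt
IRS2, chr13:109754718-109754747, minus strand: tcttaaaaatatatttaatggCAATGCAAa
IRS2, chr13:109753281-109753310, minus strand: gacatgcacacagaagatgtacCAATGCAt
PRKAA1, chr5:40760120-40760149, minus strand: atattgaagaggtaagggaggCAATGCAAa
SIRT6, chr19:4174130-4174159, minus strand: ccaggcttctggaaaagtcctCAATGCAAt
NPC1 had a match in another transcript, the one with the longest coding sequence (3′ UTR of 765 bases).
NPC1, chr18:23531873-23531902, minus strand: ctgacactctgtaaaggccaatCAATGCAc
ABCG1 held none of these letters in its longest 3′ UTR of 852 bases, and NRIP1 held only a 7mer-A1 match (AATGCAA) in 3481 bases. The absence of a match says only that these letters are not in the annotated window.

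In the longest 3′ UTR, 7 of the 10 genes held a 7mer-m8 or 8mer match and 6 held an 8mer, with 12 matches in all, 10 of them 8mers. Among 19107 protein-coding genes with an annotated 3′ UTR, 8.526% held a match and 2.517% an 8mer. The target genes have long 3′ UTRs (median 2117.5 bases, against 1106 for all genes). Among genes in their range of 515 to 3606 bases the share with a match was 7.914%. This range also leaves out the longest 3′ UTRs and does not match the genes by length. ABCA1 stood out within the set with 4 8mers, a number found in 3 of the 19107 genes. CROT carried 2 8mers 76 bases apart, and IRS2 carried an 8mer and a 7mer-m8 match 1438 bases apart. The matches of PRKAA1 and CPT1A lay far into the 3′ UTR, from bases 2650 and 2513 after the stop codon, and the match of HADHB lay close to it, from base 61. Annotated isoforms differ in these windows. The match of PRKAA1 was absent from the transcript with the longest coding sequence, whose 3′ UTR has 8 bases, and the values below are summed over the transcripts of a gene, so they do not tell which isoform was present. Sequence matches were described only, since these genes are in the set because they are reported targets.

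**Figure D1:**
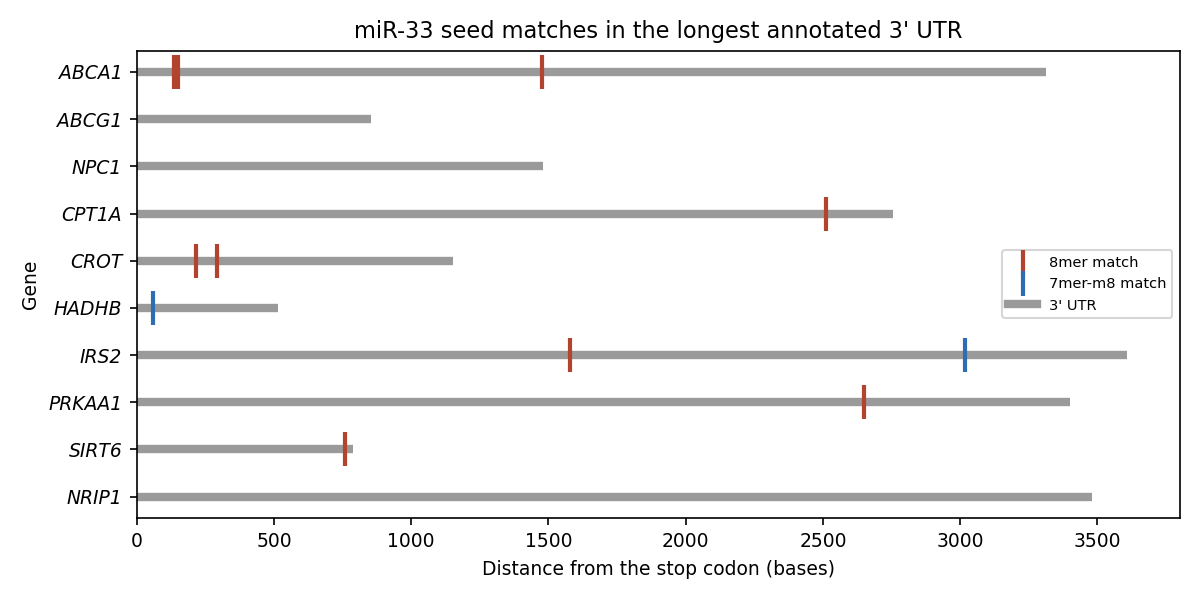
Positions of miR-33 seed matches in the longest annotated 3′ UTR of each target gene, in bases from the stop codon, with 8mer matches in red, 7mer-m8 matches in blue and the 3′ UTR as a grey bar. ABCA1 holds 4 8mers, 3 of them within 30 bases, and ABCG1, NPC1 and NRIP1 hold no match in this transcript.

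The deposited values were TPM, a unit that accounts for the length of a transcript and has a common sum in each sample. They keep no read depth, so precision was judged from the spread between samples alone. Markers of MDA-MB-231 were high in all 6 samples (VIM, CD44, AXL, CAV1 and MSN, each at 104.54 TPM or more), whereas the estrogen receptor gene ESR1 stayed at or below 0.13 TPM and the progesterone receptor gene PGR at or below 0.22. ERBB2, the gene of HER2, was at 22.31 to 40.73 TPM. TM replicate 3 stood apart from the other TM samples in host cell markers, as given below, and the values of the target genes with and without it are given beside those markers.

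The level of the target genes was examined first. HADHB was the most abundant, at 52.43 to 75.24 TPM over the 6 samples, and every one of its values was above those of the other target genes. NPC1 (24.30 to 36.54 TPM), PRKAA1 (16.25 to 39.15) and SIRT6 (19.57 to 30.16) followed with ranges that overlapped, and CPT1A (11.67 to 18.31) reached into the range of PRKAA1 only. CROT (3.66 to 6.47 TPM) and IRS2 (3.65 to 5.47) overlapped with each other and lay below CPT1A. ABCA1, NRIP1 and ABCG1 were lowest, at 0.69 to 2.23, 0.58 to 2.09 and 0.33 to 0.69 TPM, and all lay below CROT and IRS2. The genes of cholesterol export to lipoproteins were thus among the least abundant of the set, and HADHB, an enzyme of fatty acid oxidation, the most abundant.

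**Figure D2:**
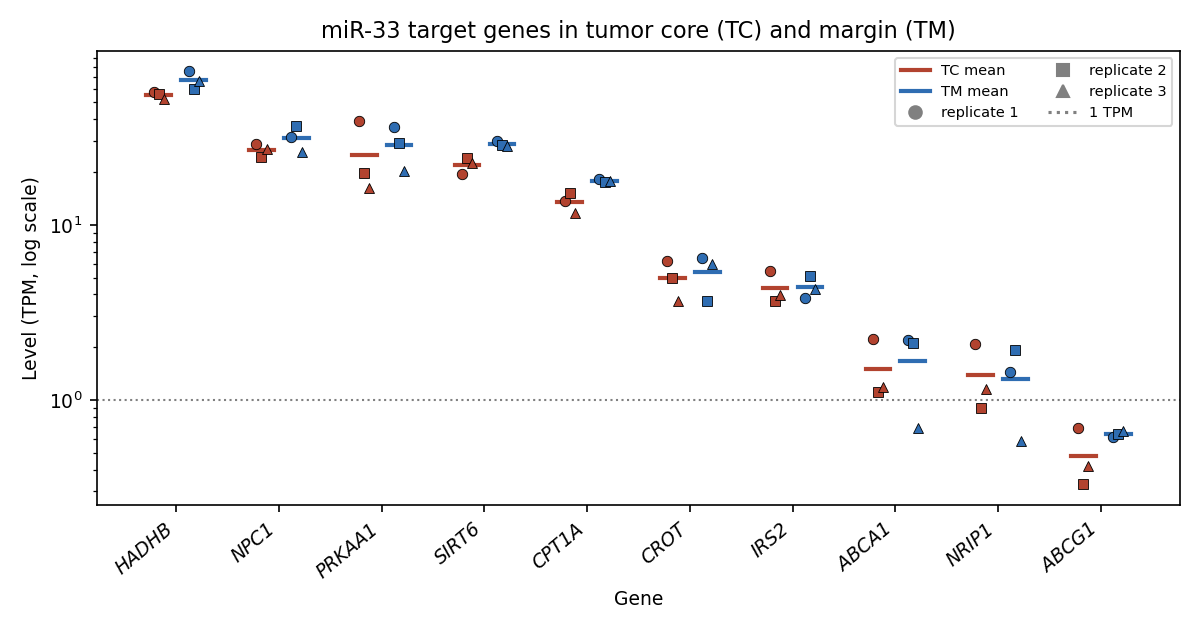
TPM (log axis) of the 10 target genes in each TC sample (red) and TM sample (blue), with a symbol for each replicate number and a bar at each group mean. Points of TC lie below all points of TM for CPT1A, HADHB and SIRT6, and the groups overlap for the other 7 genes.

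To ask whether core and margin differed in the targets, limma was fitted to log2(TPM + 1) of the 13861 genes that reached 1 TPM in 3 or more samples. A gene was called at a Benjamini-Hochberg adjusted p under 0.05. Of the 10 target genes 9 passed the filter and 0 were called, against 0.137% of all tested genes (19 genes). At an unadjusted p under 0.05, 1 of 9 (SIRT6) was lower in TC and 0 were higher. The background was 14.2% of all tested genes for a lower level in TC and 16.2% for either direction. For 3 of 9, CPT1A, HADHB and SIRT6, every TC value was below every TM value, against 18.9% of all tested genes that were lower without overlap and 22.2% in either direction. With counts this small, these shares do not set the target genes apart from the background. In bulk tissue, fewer cells of a type and less RNA per cell cannot be told apart.

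Of the genes of cholesterol transport, ABCA1 (ENSG00000165029, chr9:104781002-104928237, minus strand) moves cholesterol and phospholipid out of the cell to apolipoprotein A-I. In the order of the replicate numbers, which is kept below, it was at 2.23, 1.11 and 1.18 TPM in TC and at 2.20, 2.11 and 0.69 TPM in TM. TC replicate 1 was level with TM replicates 1 and 2, and the lowest value of all was TM replicate 3. The means were 1.51 ± 0.627 TPM in TC and 1.67 ± 0.847 TPM in TM (SD, n = 3), with a log2 difference, TC minus TM, of -0.060 (SE 0.33, 95% interval -0.82 to 0.70, limma adjusted p = 0.959). The interval is wide, so these samples do not show that ABCA1 was alike in the zones.

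ABCG1 (ENSG00000160179, chr21:42199689-42297244, plus strand), which adds cholesterol to high-density lipoprotein, did not reach 1 TPM in any sample and was not tested. It was at 0.69, 0.33 and 0.42 TPM in TC and 0.61, 0.64 and 0.66 TPM in TM. The TM values were close together, and TC replicate 1 lay above all of them. Without the filter on low values its log2 difference was -0.15 (SE 0.15, limma adjusted p = 0.688).

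NPC1 (ENSG00000141458, chr18:23506184-23586898, minus strand) carries cholesterol out of late endosomes and lysosomes. It was at 29.12, 24.30 and 27.22 TPM in TC and at 31.63, 36.54 and 26.13 TPM in TM. TM replicates 1 and 2 were above every TC sample, and TM replicate 3 lay within the TC range. The means were 26.9 ± 2.43 and 31.4 ± 5.21 TPM (SD, n = 3), with a log2 difference of -0.21 (SE 0.17, 95% interval -0.60 to 0.18, limma adjusted p = 0.613). Against TM replicate 3 alone the log2 difference was 0.036, and without this sample it was -0.33 (limma unadjusted p = 0.0835, adjusted p = 0.332). The groups did not overlap without this sample, as for 37.1% of all tested genes in that fit. NPC1 shares 604 exonic bases with RMC1 on the opposite strand.

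Among the genes of fatty acid oxidation, CPT1A (ENSG00000110090, chr11:68754620-68844410, minus strand) joins long-chain fatty acids to carnitine for entry into mitochondria, the rate-limiting step of their oxidation. It was at 13.59, 15.26 and 11.67 TPM in TC and at 18.31, 17.50 and 17.90 TPM in TM. The 3 TM values were nearly equal, and all lay above the highest TC sample. The means were 13.5 ± 1.80 and 17.9 ± 0.405 TPM (SD, n = 3), that is 24.6% lower in TC. The log2 difference was -0.39 (SE 0.17, 95% interval -0.78 to 0.00086, limma unadjusted p = 0.0504, adjusted p = 0.310).

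CROT (ENSG00000005469, chr7:87345681-87399795, plus strand) attaches carnitine to medium-chain fatty acids that leave the peroxisome. It was at 6.18, 4.98 and 3.66 TPM in TC and at 6.47, 3.66 and 5.94 TPM in TM. The groups overlapped over nearly their whole range, with the same lowest value in each. The means were 4.94 ± 1.26 and 5.36 ± 1.49 TPM (SD, n = 3), with a log2 difference of -0.091 (SE 0.28, 95% interval -0.72 to 0.54, limma adjusted p = 0.912).

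HADHB (ENSG00000138029, chr2:26243170-26290468, plus strand) is the thiolase subunit of the mitochondrial trifunctional protein, which shortens long-chain fatty acids. It was at 57.04, 55.72 and 52.43 TPM in TC and at 75.24, 59.65 and 66.10 TPM in TM. Every TM sample was above every TC sample, TM replicate 2 by the smallest margin. The means were 55.1 ± 2.37 and 67.0 ± 7.83 TPM (SD, n = 3), 17.8% lower in TC, with a log2 difference of -0.27 (SE 0.14, 95% interval -0.58 to 0.039, limma unadjusted p = 0.0782, adjusted p = 0.385).

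The set also holds regulators of energy balance. IRS2 (ENSG00000185950, chr13:109752698-109786568, minus strand) passes the signal of the insulin and IGF1 receptors to PI3K and AKT. It was at 5.47, 3.65 and 3.97 TPM in TC and at 3.83, 5.13 and 4.29 TPM in TM. The highest and the lowest of the 6 values were both TC samples. The means were 4.36 ± 0.972 and 4.42 ± 0.659 TPM (SD, n = 3), with a log2 difference of -0.022 (SE 0.23, 95% interval -0.56 to 0.52, limma adjusted p = 0.979). It shares 115 exonic bases with an antisense gene.

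PRKAA1 (ENSG00000132356, chr5:40759379-40798374, minus strand) encodes a catalytic subunit of AMPK, the kinase that responds to low cellular energy and turns on fatty acid oxidation. It was at 39.15, 19.88 and 16.25 TPM in TC and at 36.35, 29.30 and 20.36 TPM in TM. Its coefficient of variation was 49.0% in TC and 28.0% in TM. TC replicate 1 was the highest sample of all, while TC replicates 2 and 3 were below every TM sample. The means were 25.1 ± 12.3 and 28.7 ± 8.01 TPM (SD, n = 3), with a log2 difference of -0.25 (SE 0.33, 95% interval -1.01 to 0.52, limma adjusted p = 0.782). Without TC replicate 1 the groups did not overlap, as for 33.7% of all tested genes in that fit. The log2 difference there was -0.61 (limma unadjusted p = 0.0571, adjusted p = 0.356), and without TC replicate 3 it was 0.0020.

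SIRT6 (ENSG00000077463, chr19:4174109-4182604, minus strand) is an NAD-dependent deacylase of histones that restrains glycolytic and lipid synthesis genes. It was at 19.57, 23.95 and 22.66 TPM in TC and at 30.16, 28.72 and 28.34 TPM in TM. All TM values lay close together and above all TC values. The means were 22.1 ± 2.25 and 29.1 ± 0.960 TPM (SD, n = 3), 24.1% lower in TC. The log2 difference was -0.39 (SE 0.15, 95% interval -0.73 to -0.046, limma unadjusted p = 0.0308, adjusted p = 0.255), so SIRT6 did not pass after adjustment over all genes.

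NRIP1 (ENSG00000180530, chr21:14961235-15065936, minus strand), also called RIP140, is a corepressor of nuclear receptors that holds back oxidative metabolism. It was at 2.09, 0.90 and 1.15 TPM in TC and at 1.44, 1.92 and 0.58 TPM in TM. As for ABCA1, TC replicate 1 was the highest sample and TM replicate 3 the lowest. The means were 1.38 ± 0.627 and 1.31 ± 0.679 TPM (SD, n = 3), with a log2 difference of 0.055 (SE 0.32, 95% interval -0.68 to 0.79, limma adjusted p = 0.962). It shares 562 exonic bases with an antisense gene and 87 with a non-coding gene on its own strand.

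The sample that was highest within a group tended to be the same for several genes. TC replicate 1 was the highest TC sample for 8 of the 10 genes, the exceptions being CPT1A and SIRT6, and TC replicate 3 for 0. In TM, replicate 1 was highest for 6 genes and replicate 3 lowest for 5. The genes share a library, so these counts are not independent.

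The 9 tested genes were then viewed against the shift of all genes. Of the 9, 8 were lower in TC (all but NRIP1), and their median log2 difference was -0.21. Over all 13861 tested genes the median was -0.14 and 67.0% were lower in TC. The median of the target genes rested on single samples, being 0.0020 with 4 of 9 genes lower without TC replicate 3, and -0.33 with 9 of 9 lower without TM replicate 3. TPM sums to a constant, so the level of a gene depends on what the other genes take up. Mitochondrially encoded genes took 8.84%, 6.09% and 6.32% of the TPM in the TC samples and 9.24%, 10.5% and 11.1% in the TM samples. With these genes left out the medians lay farther below 0, at -0.18 for all tested genes and -0.26 for the target genes. After rescaling by median-of-ratios factors, the median of all genes was 0.049, that of the target genes was -0.0055, and 5 of the 9 were lower in TC. ABCA1, CROT and IRS2 then had log2 differences of 0.067, 0.083 and 0.15. CPT1A, HADHB and SIRT6 kept a negative sign at -0.19, -0.065 and -0.18, but the groups overlapped for each of them and 0 of 9 had an unadjusted p under 0.05. After quantile normalization the groups did not overlap for SIRT6 alone (log2 difference -0.22, limma adjusted p = 0.584), against 20.2% of all tested genes. The sign for CPT1A, HADHB and SIRT6 was thus the same on each scale, while none of them was called. The same held for NPC1 and PRKAA1, negative at -0.0055 and -0.045 after median-of-ratios rescaling, and for NRIP1, positive at 0.17. The separation of CPT1A and HADHB from TM was lost under both rescalings, and that of SIRT6 under median-of-ratios rescaling only.

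**Figure D3:**
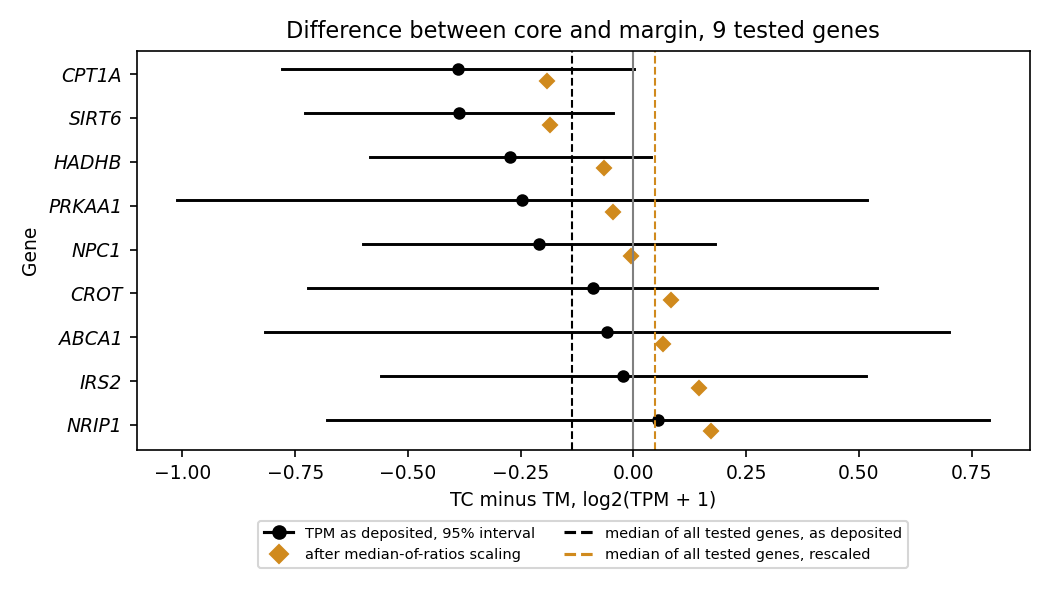
Log2 difference (TC minus TM, of TPM + 1) for the 9 tested target genes, with the 95% interval of the limma fit (black) and the value after median-of-ratios rescaling (orange), and dashed lines at the median of all 13861 tested genes on each scale. Black points lie left of 0 for 8 genes, the interval of SIRT6 alone lies wholly below 0, and rescaling moves every point to the right.

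The miR-33 genes themselves could not be followed. MIR33A and MIR33B were listed at 0 in all 6 samples, and libraries of long RNA give little information on a precursor or a mature miRNA. Of the host genes, SREBF2 was at 57.35, 51.03 and 50.27 TPM in TC and at 70.59, 76.54 and 55.01 TPM in TM (log2 difference -0.33, SE 0.16, limma unadjusted p = 0.0666, adjusted p = 0.356). Its TM replicates 1 and 2 were above every TC sample, and TM replicate 3 lay among them. Without TM replicate 3 its log2 difference was -0.47 (limma unadjusted p = 0.00992, adjusted p = 0.142), and against TM replicate 3 alone it was -0.058. SREBF1 was at 34.96, 27.01 and 37.12 TPM in TC and at 43.80, 56.30 and 47.49 TPM in TM, with no overlap. Its means were 33.03 ± 5.32 and 49.2 ± 6.42 TPM (SD, n = 3), with a log2 difference of -0.57 (SE 0.17, limma unadjusted p = 0.0106, adjusted p = 0.165), and after median-of-ratios rescaling its log2 difference was -0.36 (limma adjusted p = 0.461). A host gene's message is not a measure of the miRNA in its intron.

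The other genes of the same pathways were given by 7 lists with 96 tested genes. The number called was 0 in every list, and 17 of the 96 (17.7%) had an unadjusted p under 0.05, all lower in TC, against 14.2% of all tested genes. The number higher in TC at that level was 0 of 96, against 268 of 13861. The scaling changed this split. With median-of-ratios factors 8 of the 96 were lower and 6 higher, beside 929 lower and 944 higher of all genes, while quantile normalization gave 11 lower and 4 higher, beside 1124 and 737. Of the 17 genes named below, all stayed negative under both rescalings, but 9 lost the unadjusted p under 0.05 after median-of-ratios rescaling: SREBF1, SCAP, ABCA2, LCAT, ACADVL, PPARD, CPT2, AKT1 and XPO5. Their rescaled log2 differences were -0.36, -0.25, -0.29, -0.59, -0.22, -0.30, -0.30, -0.15 and -0.29, in that order. Of the list of SREBP control, 2 of 8 tested genes had an unadjusted p under 0.05: SREBF1, given above, and SCAP, the escort protein of the SREBPs (log2 difference -0.45, limma adjusted p = 0.178). Of cholesterol export and trafficking it was 2 of 15, the lipid transporter ABCA2 (-0.49, limma adjusted p = 0.227) and LCAT, the enzyme that esterifies cholesterol on lipoproteins (-0.74, limma adjusted p = 0.299). The list had 12 genes lower and 3 higher in TC, with a median log2 difference of -0.21, the same as that of the target genes, and after median-of-ratios rescaling 8 were lower and 7 higher, with a median of -0.020.

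Fatty acid oxidation held the largest difference of the 7 lists, that of CPT1B, the isoform of CPT1A known from muscle. CPT1B was at 3.54, 2.71 and 1.96 TPM in TC and at 12.33, 8.12 and 12.25 TPM in TM. All TM values were far above all TC values. The means were 2.74 ± 0.790 and 10.9 ± 2.41 TPM (SD, n = 3), 74.9% lower in TC, with a log2 difference of -1.67 (SE 0.26, limma unadjusted p = 0.00018, adjusted p = 0.0658), which missed the threshold. CPT1B shares its exons with the readthrough gene CHKB-CPT1B, so reads may be split between these entries. CHKB-CPT1B itself, named after its values were seen, was at 3.83, 2.56 and 3.20 TPM in TC and at 5.33, 6.54 and 11.14 TPM in TM (limma adjusted p = 0.149), also without overlap. Of 26 tested genes 4 had an unadjusted p under 0.05, the others being ACADVL, which oxidizes very-long-chain acyl-CoA (277 ± 6.30 and 376 ± 41.0 TPM, SD, n = 3, log2 difference -0.43, limma adjusted p = 0.142), the nuclear receptor PPARD (-0.50, limma adjusted p = 0.306) and CPT2, which acts after CPT1 at the inner mitochondrial membrane (-0.48, limma adjusted p = 0.308). The list as a whole was split, with 16 genes lower and 10 higher in TC and a median of -0.069. After median-of-ratios rescaling CPT1B kept a log2 difference of -1.50 (limma adjusted p = 0.113), the median of the list turned to 0.13, and ECI1, DECR1 and ACSL4, named after their values were seen, had unadjusted p-values under 0.05 with positive log2 differences of 0.59, 0.37 and 0.54 (limma). In other lists the same held for INSIG2 (0.63), PRKAG1 (0.33) and PRKRA (0.42), also named after their values were seen.

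Of 19 tested genes of AMPK and insulin signalling, the pathways of PRKAA1 and IRS2, 15 were lower in TC (11 after median-of-ratios rescaling), with a median of -0.24 (-0.049 rescaled), and 4 had an unadjusted p under 0.05. STK11, the kinase LKB1 that activates AMPK, averaged 38.1 ± 2.26 TPM in TC and 55.3 ± 2.12 TPM in TM (SD, n = 3), which differ on the log2 scale by -0.53 (limma adjusted p = 0.107). Its partner STRADA had a log2 difference of -0.69 (limma adjusted p = 0.142), AKT2 of -0.65 (limma adjusted p = 0.0843) and AKT1 of -0.36 (limma adjusted p = 0.233). All 9 tested genes among the other sirtuins and the partners of NRIP1 were lower in TC as deposited, and 6 of 9 after median-of-ratios rescaling. The sirtuin SIRT7 averaged 21.1 ± 2.04 TPM in TC and 36.9 ± 5.45 TPM in TM (SD, n = 3), which differ on the log2 scale by -0.77 (limma adjusted p = 0.0877), and CTBP1, a corepressor that binds NRIP1, had a log2 difference of -0.63 (limma adjusted p = 0.0941). Of 6 tested genes among other reported miR-33 targets, 4 were lower and 2 higher in TC as deposited (1 and 5 after rescaling), the median was -0.066 (0.14 rescaled), and 0 had an unadjusted p under 0.05.

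The genes that make and use miRNAs had the lowest median of the 7 lists, -0.41 over 13 tested genes, with 11 lower in TC. This median was -0.24 after median-of-ratios rescaling, again with 11 lower. DGCR8, which positions the nuclease Drosha on primary miRNAs, was at 14, 7.74 and 9.20 TPM in TC and at 19.45, 24.69 and 25.40 TPM in TM. The groups did not overlap (10.3 ± 3.28 and 23.2 ± 3.25 TPM, SD, n = 3, log2 difference -1.12, limma adjusted p = 0.0843). XPO5, which exports miRNA precursors from the nucleus, had a log2 difference of -0.49 (limma adjusted p = 0.180), and TNRC6A, a partner of Argonaute, of -0.62 (limma adjusted p = 0.194). Against TM replicate 3 alone the median of the list was -0.091.

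**Figure D4:**
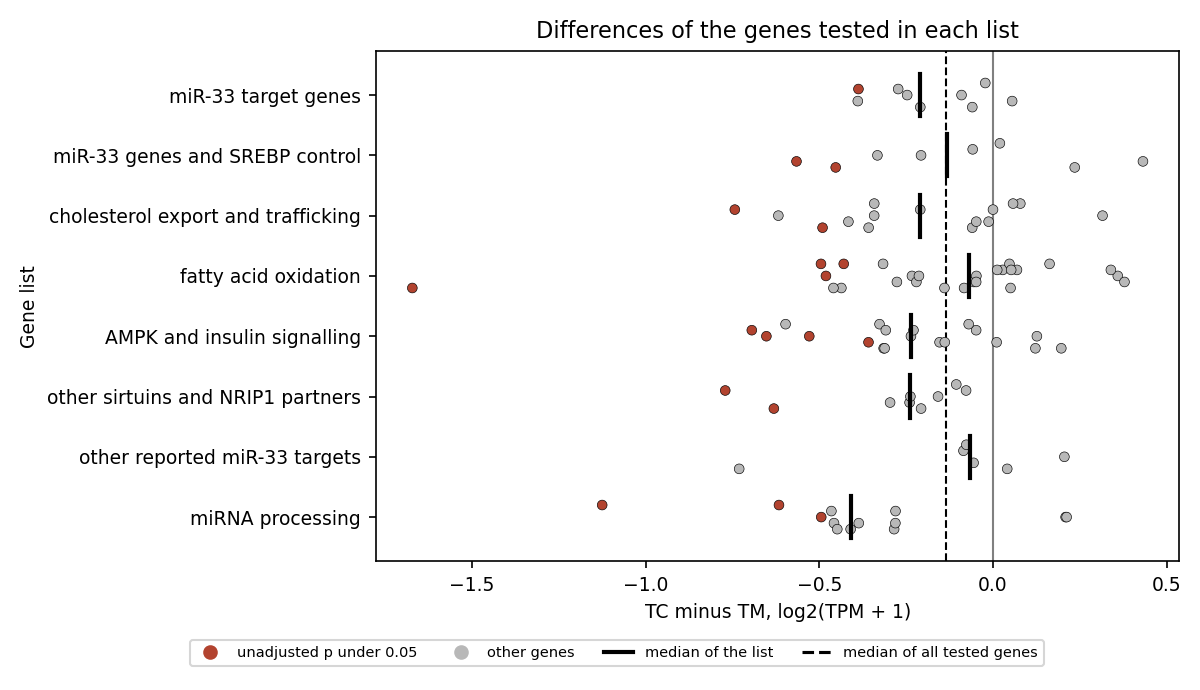
Log2 difference (TC minus TM, of TPM + 1) of each tested gene in the set of target genes and in 7 lists of related genes, with genes at an unadjusted p under 0.05 in red, a bar at the median of each list and a dashed line at the median of all tested genes. All red points lie left of 0, with CPT1B farthest left at -1.67, and 0 genes passed after adjustment.

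Since the tumors grew in the mammary fat pad of mice and no step that parts mouse from human reads was described, markers of host cells were examined beside these results. The summed level of 9 measured skeletal muscle markers was 5.61, 7.51 and 3.52 TPM in TC and 170.84, 457.01 and 1.78 TPM in TM (exact permutation test, two-sided p = 0.4). That of 7 fibroblast markers was 64.93, 122.30 and 223.25 TPM in TC and 473.65, 1001.90 and 88.43 TPM in TM (exact permutation p = 0.3). Collagen genes made up most of the fibroblast sum, with COL1A1 at 334.51, 698.15 and 62.86 TPM in TM. The other markers were low: PDGFRB was at 2.50 to 2.58 TPM in TC and 3.45 to 4.95 TPM in TM, and DPT at 0.66 TPM or less. DCN was at 4.82 TPM in TM replicate 1 and at 0 elsewhere. LUM was at 0 in TM replicates 1 and 2, and at 0.38 and 0.27 TPM in TC replicates 1 and 2. The muscle and fibroblast sums were both high in TM replicates 1 and 2 and low in TM replicate 3. The groups did not overlap for CPT1A, HADHB, SIRT6 and CPT1B, which by itself puts TM replicate 3 above every TC sample and fixes the sign against it. In TM replicate 3 these genes were at 17.90, 66.10, 28.34 and 12.25 TPM. Their log2 differences were much the same without TM replicate 3 (-0.39, -0.28, -0.40 and -1.58) and against it alone (-0.39, -0.26, -0.35 and -1.85). Those of ABCA1, NPC1, PRKAA1 and NRIP1 were -0.36, -0.33, -0.47 and -0.20 without TM replicate 3 and 0.54, 0.036, 0.19 and 0.56 against it alone, with opposite signs. CROT and IRS2 were at -0.013 and -0.036 without it and at -0.25 and 0.0048 against it alone. NPC1 and SREBF2 were above every TC sample in TM replicates 1 and 2 only. The part of host RNA in the values of any of these genes was not tested. Of 7 adipocyte markers, ADIPOQ, LEP and CIDEA were at 0 in all samples, and the sum of all 7 was 0.44 to 0.88 TPM in TC and 0.67 to 1.09 TPM in TM (exact permutation p = 0.4). The sums for macrophages (95.2 to 106 TPM in TC, 102 to 108 TPM in TM), endothelium (2.94 to 4.64 and 3.79 to 6.78) and erythroid cells (1.06 to 6.93 and 0.29 to 4.82) overlapped between the groups. CD68 made up most of the macrophage sum, at 84.80 to 94.19 TPM over all samples. ADGRE1 was at 7.92 to 10.49 TPM and CSF1R at 1.99 to 9.12. CD14, MRC1, CD163 and PTPRC were at 0.73 TPM or less. The smallest p that 3 samples against 3 can give is 0.1, and the Benjamini-Hochberg value over 9 such lists was 0.562 or more.

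Finally, tested genes with a miR-33 seed match in the longest 3′ UTR were compared with those without one, whether or not they are known targets. The median log2 difference was -0.11 over 1031 genes with a match, of which 65.7% were lower in TC, and -0.14 over 10687 genes without, of which 68.1% were lower. Genes with a match have longer 3′ UTRs (median 3399 against 1219 bases). Within the length range of the target genes the medians were -0.12 (529 genes) and -0.15 (6706 genes). The lengths still differed there (median 2203 against 1444 bases). For the 303 genes with an 8mer the median was -0.068, and for the 11415 without one it was -0.14. Their 3′ UTRs differed more in length (median 3880 against 1306 bases). In the length range of the target genes these medians were -0.068 (135 genes) and -0.15 (7100 genes), again at unlike lengths (median 2287 against 1477 bases). Over all lengths, the medians after median-of-ratios rescaling were 0.11 with an 8mer and 0.052 without. These medians are given as a description, since genes of one sample are not independent. The 6 known targets with an 8mer lay on both sides of the 8mer median of -0.068. ABCA1, with 4, was at -0.060, and CROT, with 2, at -0.091. SIRT6, CPT1A, PRKAA1 and IRS2, each with 1, were at -0.39, -0.39, -0.25 and -0.022.

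**Figure D5:**
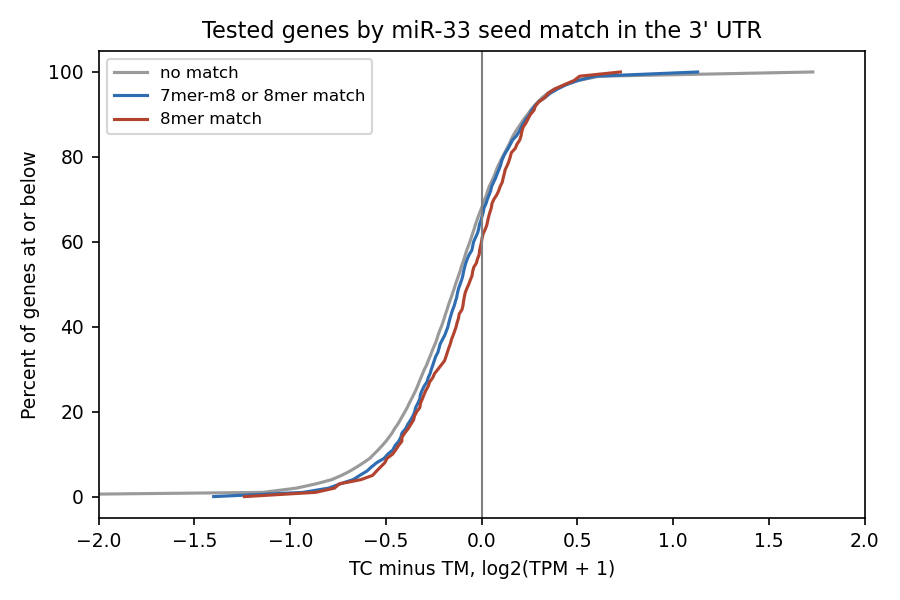
Cumulative percent of tested genes at or below each log2 difference, TC minus TM, for genes with an 8mer match to the miR-33 seed in the longest 3′ UTR (red), with a 7mer-m8 or 8mer match (blue) and with no match (grey). The 3 curves run close together, with medians of -0.068, -0.11 and -0.14.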

How the data were processed

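RNA sequencing of 3 tumor core and 3 tumor margin samples was analysed. Per the study's methods, the authors trimmed paired reads with SeqPrep and Sickle, aligned them with HISAT2, assembled transcripts with StringTie and quantified genes with RSEM, on genome build hg38 per the submitters' processing notes. The annotation release is not given in the sources used here. The deposited matrix holds TPM, which sum to 1000000 per sample (994381 in TM replicate 3), and keeps no depth, so counting error is not covered. Replicates were taken from the sample titles.

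Loci assembled outside the annotation (259 of 60930 rows) were left out. The difference between TC and TM was fitted to log2(TPM + 1) with limma 3.58.1 (R 4.3.3), with empirical Bayes moderation and a mean-variance trend, two-sided, over the 13861 genes at 1 TPM or more in at least 3 of 6 samples. The scale understates changes of low genes. The fit was tested on simulated data. Gene positions, 3′ UTRs and sequences come from GENCODE v29 on GRCh38, which holds 96.3% of the annotated genes, and miRNA sequences from RefSeq. Motifs were searched on the transcribed strand of the 3′ UTR only. Single values per sample were compared by an exact permutation test.

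The target genes, the lists and the tests were chosen with earlier results of these data known. Named genes are all 10 targets, MIR33A, MIR33B and their host genes, and of each list up to 4 tested genes with the smallest unadjusted p under 0.05. The muscle marker MYLPF was not analysed here. Alternatives were another pseudocount, other filters and scalings, the replicate number as a block, other moderation, and leaving out each sample. Median-of-ratios rescaling with the block and TM replicate 3 alone were chosen after seeing the data.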

Additional observations from a re-analysis of the deposited data

How the results depend on the processing

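Over 17 alternative settings, 150 values of the target genes were computed. Of these 125 kept their direction and their side of the threshold, 25 (from 6 genes) reversed, and 0 were called, with a lowest limma adjusted p of 0.162 (SIRT6 without mitochondrially encoded genes). CPT1A, HADHB and SIRT6 stayed negative throughout, at -0.48 to -0.19, -0.35 to -0.065 and -0.45 to -0.18. ABCA1, CROT and IRS2 reversed after quantile normalization (0.079, 0.098 and 0.15) and after median-of-ratios rescaling, with or without the replicate block (0.067, 0.083 and 0.15). Against TM replicate 3 alone, whose spread is then assumed to be that of TC, ABCA1, NPC1, IRS2 and PRKAA1 were at 0.54, 0.036, 0.0048 and 0.19. Leaving out each sample moved ABCA1 from -0.36 to 0.10, CROT from -0.30 to 0.073, IRS2 from -0.17 to 0.073, NRIP1 from -0.20 to 0.25 and PRKAA1 from -0.61 to 0.0020.

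With a pseudocount of 0.1, a mean of at least 5 TPM or no trend, 2 target genes had an unadjusted p under 0.05 (limma). The shares of all tested genes there were 16.1%, 17.7% and 15.2%. The number was 3 without a filter or without mitochondrially encoded genes, beside 11.0% and 18.4% of all tested genes. Under quantile and median-of-ratios rescaling the number was 0, beside 13.4% and 13.5%. When each sample was left out it ranged from 0 to 1, beside 11.4% to 19.2%. SIRT6 lost its unadjusted p under 0.05 without TC replicate 1, TM replicate 1 or TM replicate 2. Groups did not overlap for 1 gene after quantile normalization, 0 after median-of-ratios rescaling (with or without the block), and 5 against TM replicate 3 alone (3 lower and 2 higher in TC, with 60.99% of all genes not overlapping). The median of the target genes was -0.0055 after median-of-ratios rescaling (with or without the block), 0.0048 against TM replicate 3 alone, and -0.33 to 0.0020 when each sample was left out.

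Of all genes, 7 were called with a pseudocount of 0.1, 1 without a filter, 4 and 6 after quantile and median-of-ratios rescaling, 12 without a trend, 47 with robust moderation, 195 against TM replicate 3 alone, and 1 to 17 when each sample was left out. With the replicate number as a block, 1 gene was called. In that fit 0 targets had an unadjusted p under 0.05 (limma), against 13.9% of all tested genes. With the block and median-of-ratios rescaling together 1 gene was likewise called. The block was an alternative only, since neither the labels nor the methods say that a number stands for 1 mouse. Same-numbered samples correlated at 0.211, -0.121 and -0.165 in their deviations from the group means, and differently numbered ones at -0.232 to 0.317. With 3 samples per group these values cannot decide whether the samples are paired. The share of genes with a seed match was 2.517% for 8mers alone and 19.06% with 7mer-A1 matches. Causes were not tested. Read depth is unknown, and 3 samples per group leave wide intervals (-1.01 to 0.52 for PRKAA1).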
